A study of Mus musculus with 18 samples.

Results

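RNA was compared between APC-intact MC38 cells kept for 48 h in 1 µM doxycycline (3 libraries) and untreated APC-intact MC38 cells (3 libraries), which are 6 of the 18 libraries of the series. MC38 is a colon adenocarcinoma line that arose in C57BL6 mice. The 48 h libraries carry in their titles an inducible hairpin against Tdo2, which doxycycline switches on, and the untreated libraries carry only the name of the line. All cells grew in DMEM with 10% serum approved for tetracycline systems. The other 12 libraries are APC-intact cells after 24 h of doxycycline, and cells of the same line with Apc deleted after 24 h, after 48 h and untreated, with 3 libraries each. They are used here for the shared estimate of spread and where a result is set beside them. The labels do not say how many clones each line rests on. The protocol speaks of hairpin cells with and without doxycycline, so whether the untreated cells carried the hairpin is not settled here. No treated group lacked it, so the hairpin and doxycycline itself cannot be told apart. A designation in the names of the files is taken here for 2 sequencing runs of 9 libraries each. If so, all 48 h libraries of this comparison came from run 2 and all untreated ones from run 1, so treatment and run coincide. Each group is a biological triplicate by its label, with no word on separate cultures, and the spread behind a p-value here may be technical. In bulk RNA, fewer cells that express a gene and less of its RNA per cell cannot be told apart.

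TDO2 is a dioxygenase that opens the kynurenine route of tryptophan breakdown, and kynurenine is a ligand of the aryl hydrocarbon receptor. Much of what follows concerns another pair of programmes. NF-kB is a family of transcription factors held in the cytoplasm by IκB inhibitors. Signals from TNF, IL1 or microbial products free it to drive chemokines, acute phase proteins and its own inhibitors. Interferon acts through JAK kinases on transcription factors that switch on antiviral effectors, guanylate-binding proteins and antigen presentation. Tumour cells use both programmes to call in and show themselves to immune cells.

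The 48 h libraries held 87820758 to 94183643 counts in genes and the untreated libraries 92387854 to 96007240. Values are given as gene counts scaled to library size with TMM factors (CPM). A change is a log2 fold change of 48 h over untreated ± SE from edgeR's quasi-likelihood test, and a gene is said to have risen or fallen where its Benjamini-Hochberg adjusted p over all genes tested was under 0.05. Of 15006 genes tested, 1703 changed (11.3%). Of these, 572 rose (3.81%) and 1131 fell (7.54%). The count fell to between 822 and 1124 without any single library except untreated replicate 3 (1409). Most changes were small, with a median size of 0.30 on the log2 scale. At 2-fold or more, 73 rose and 88 fell. The CPM of the groups did not overlap for 6467 genes (43.1%), among them 1693 of those that changed. Genes named below for the size of their change were picked with separate groups as a condition, so their separation adds no support. In a second fit, run was a term beside line and time over all 18 libraries, which takes both lines to respond alike. Its log2 fold changes are therefore shared by both lines, and are not those of APC-intact cells with run removed. There 61 genes rose and 286 fell at 48 h, and 326 of the 1703 calls were kept, while no gene was called for run itself (393 at an unadjusted p under 0.05). The run term is set by the 24 h libraries, the only time at which the lines differ in run. It cannot tell run from a difference between the lines at 24 h, and the part of run in the 48 h change was not tested. The median SE was 0.12 on the log2 scale in that fit and 0.085 without the term, so a call can be lost there at an unchanged size. On the principal component that held 39.45% of the variance among the 6 libraries, untreated replicate 3 lay nearest to the 48 h libraries. Reads outside annotated genes took 6.27 to 7.01% of the 48 h libraries and 5.25 to 6.12% of the untreated libraries. The epithelial markers Epcam and Cdx2 had no count in any of the 6 libraries, and 8 of 11 epithelial markers stayed under 1 CPM in all of them, although the label names an adenocarcinoma.

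The promoters of 3 genes that fell are shown first, chosen as examples that hold a motif searched for. Each line holds the 250 bases before the RefSeq start of the gene on GRCm38.p6, 5′ to 3′ on the gene's own strand. Capitals mark matches, on either strand, to a κB-like motif in Cxcl1 (the letters GGGA, then any 4 bases, then CC) and to an interferon-response-like motif in Isg15 and Ifit3 (GAAA, then any 2 bases, then GAAA). Cxcl1 lies on the plus strand (chr5:90890995-90891244), Isg15 on the minus strand (chr4:156200819-156201068) and Ifit3 on the plus strand (chr19:34583279-34583528).
Cxcl1: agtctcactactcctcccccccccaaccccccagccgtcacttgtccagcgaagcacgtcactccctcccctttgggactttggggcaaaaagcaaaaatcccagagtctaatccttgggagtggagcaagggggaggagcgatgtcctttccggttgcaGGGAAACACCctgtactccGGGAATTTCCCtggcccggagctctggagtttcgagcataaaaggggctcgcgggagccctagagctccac
Isg15: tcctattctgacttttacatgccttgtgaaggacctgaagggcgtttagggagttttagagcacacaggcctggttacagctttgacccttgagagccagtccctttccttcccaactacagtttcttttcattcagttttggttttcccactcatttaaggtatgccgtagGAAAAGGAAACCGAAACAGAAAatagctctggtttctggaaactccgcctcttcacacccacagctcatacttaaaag
Ifit3: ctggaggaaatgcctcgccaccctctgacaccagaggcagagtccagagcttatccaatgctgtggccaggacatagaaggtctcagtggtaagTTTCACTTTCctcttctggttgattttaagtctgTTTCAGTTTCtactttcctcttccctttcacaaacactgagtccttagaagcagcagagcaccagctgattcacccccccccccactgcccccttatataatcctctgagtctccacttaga
In Cxcl1 a match begins 90 bases before the start, and another begins 71 bases before it on the plus strand and overlaps a match on the minus strand. Isg15 holds 3 overlapping matches between 78 and 57 bases before the start, and Ifit3 holds 2 on the minus strand. Over the promoters of tested genes that could be matched to RefSeq by symbol (9865), 26.2% held the κB-like letters and 3.24% the interferon-response-like letters. Over all 27025 promoters in the table the shares were 19.7% and 3.46%. A match is a description of letters in this window and not a site. The shares for the genes that fell are given with each programme below.

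The targeted gene was measured at the edge of detection. Tdo2 (chr3:81957090-81975750, minus strand, mm10) had 0.226, 0.229 and 0.308 CPM in 48 h cells and 0.284, 0.235 and 0.165 CPM in untreated cells, from 16 to 29 counts per library. The groups overlap. The log2 fold change was 0.16 ± 0.45 (edgeR adjusted p = 0.856), and the 95% interval of the fold ran from 0.579 to 2.15. A fall in Tdo2 mRNA was thus not detected, and 0.579-fold is the largest fall inside that interval. Its sign turned negative with run as a term, where the value is shared by both lines, and without untreated replicate 3. Ido1, an alternative dioxygenase, had 3 counts in all 6 libraries together and was not tested. None of the 5 tested genes of the kynurenine pathway changed by edgeR or DESeq2, and none had an unadjusted p under 0.05, with log2 fold changes of -0.13 to 0.16.

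Genes around tryptophan and the aryl hydrocarbon receptor changed in part and mostly by small sizes, with a large exception. Of 6 tested genes of tryptophan uptake and other uses, 2 fell (33.3%) and none rose, and Inmt was 1 of these falls. Inmt, a methyltransferase that uses tryptamine and other indole amines, had 2.87, 2.57 and 2.57 CPM in 48 h cells and 9.23, 9.23 and 7.18 CPM in untreated cells. Inmt fell by 1.68 ± 0.14 on the log2 scale (adjusted p = 1.5e-07). Among called genes with an assigned symbol, separate groups and 5 CPM or more in the higher group, none fell more than Inmt. Genes with Gm, RP, Rik or clone names were left out of this ranking. The fall of Inmt was already of this size at 24 h, within run 1 (-1.59, adjusted p = 1.4e-06). Of 6 tested genes of aryl hydrocarbon receptor signalling, 1 rose and 2 fell (16.7% and 33.3%), with a median of -0.00 beside 0.00 over all genes tested. Over all genes tested 3.81% rose and 7.54% fell. Arnt, the receptor's partner, rose by 0.28 ± 0.06, with a like size but no call with run as a term (0.30, adjusted p = 0.061). The detoxifying enzyme Nqo1 fell to 71.5, 73.9 and 74 CPM in 48 h cells, against 97.7, 102 and 96.7 CPM in untreated cells. Ahr itself had a log2 fold change of 0.14 ± 0.07 (adjusted p = 0.19). The classical targets Cyp1a1, Cyp1a2 and Cyp1b1 had 3, 1 and 3 counts in all 6 libraries together and give no reading.

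**Figure D1:**
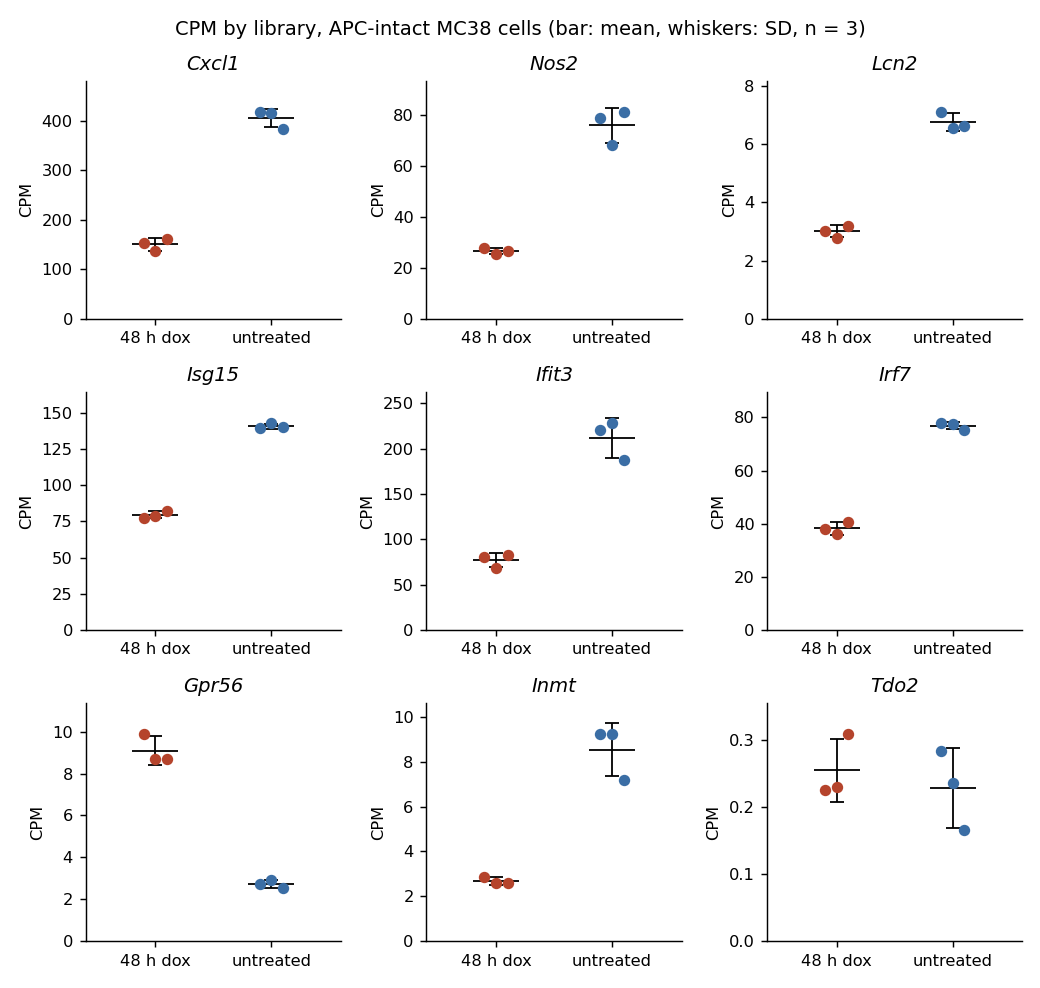
CPM of 9 genes in each of the 6 libraries (points), with the mean (bar) and SD (whiskers, n = 3). The 48 h doxycycline cells stand left of the untreated cells in each panel. Cxcl1, Nos2, Lcn2, Isg15, Ifit3, Irf7 and Inmt were lower in all 48 h libraries than in any untreated one, Gpr56 was higher, and Tdo2 overlaps.

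Chemokines had the lowest median of the 33 gene lists. Of 31 listed, 18 had enough counts to test, 14 fell and none rose, with a median log2 fold change of -0.99. The other 13 had 0 to 27 counts over the 6 libraries. All 5 tested CXC chemokines with an ELR motif, the class that binds neutrophil receptors, fell. Cxcl1, which draws neutrophils in the mouse, had 152, 137 and 162 CPM in 48 h cells and 418, 416 and 385 CPM in untreated cells. Cxcl1 fell by 1.44 ± 0.08 (adjusted p = 8.8e-10). Cxcl5 had 0.327, 0.125 and 0.202 CPM in 48 h cells and 1.39, 0.94 and 1.1 CPM in untreated cells. Cxcl3 had 0.338, 0.219 and 0.255 CPM in 48 h cells and 1.4, 1.45 and 1.18 CPM in untreated cells. Both passed the test (-2.39 ± 0.26 and -2.31 ± 0.23), as did Ppbp (-1.57 ± 0.15).

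The monocyte-attracting CC chemokines followed. Ccl2 had 797, 832 and 795 CPM in 48 h cells and 1709, 1795 and 1664 CPM in untreated cells, a fall of 1.09 ± 0.07 (adjusted p = 2.5e-09). Ccl7, its neighbour on chromosome 11, had 117, 123 and 119 CPM in 48 h cells and 293, 306 and 281 CPM in untreated cells. No library of either gene crossed between the groups, as for 43.1% of all genes tested. Ccl20, which draws CCR6-bearing lymphocytes, fell by 1.47 ± 0.22, and Ccl9 by 0.72 ± 0.07. Of the CXC and CX3C chemokines without an ELR motif, all 4 tested fell, by 0.50 to 0.90. The T cell attractant Cxcl10 fell by 0.64 ± 0.09, Cxcl16 by 0.75 ± 0.07 and the membrane-bound Cx3cl1 by 0.50 ± 0.06. Of the 14 falls, 12 were kept without each library in turn and 10 with run as a term. Among those named, that fit lost Cxcl10 (-0.47, adjusted p = 0.12).

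**Figure D2:**
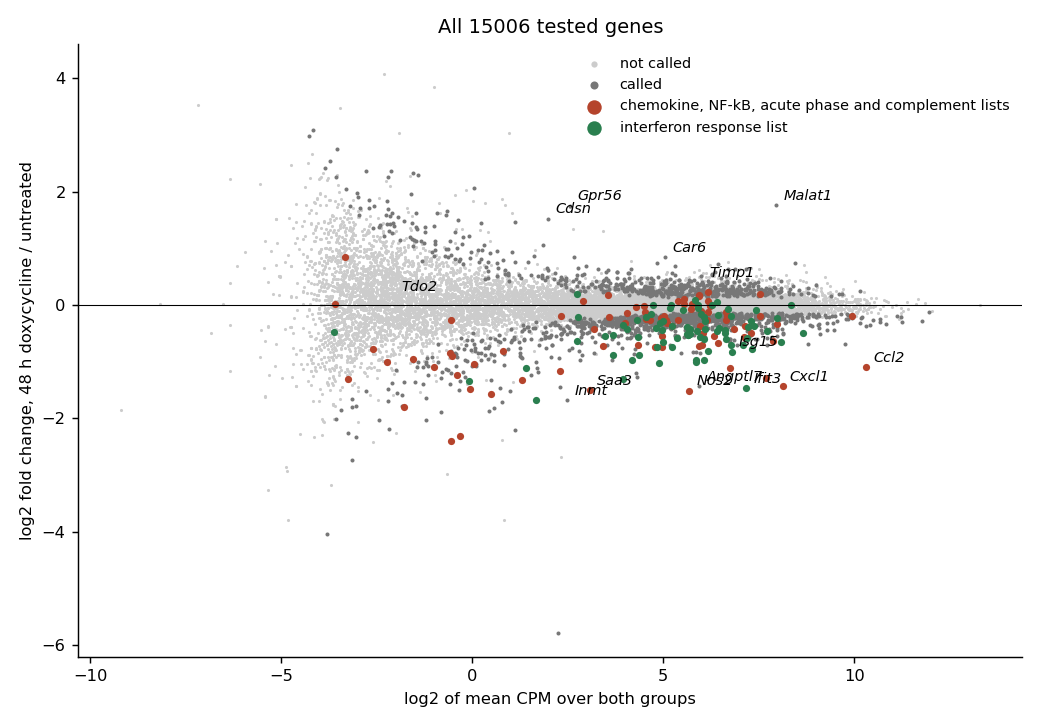
Log2 fold change of 48 h doxycycline over untreated (y axis) against the log2 of mean CPM over both groups (x axis), 1 point per tested gene. Members of the chemokine, NF-kB, acute phase and complement lists (red) and of the interferon response list (green) lie mostly below 0. Gpr56, Cdsn and Malat1 stand out above.

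Within the NF-kB list most falls lay among inhibitors and targets. Of 50 tested genes, 23 fell and none rose (median -0.22). Lower were 2 of 12 receptors and adaptors, 1 of 7 kinases and 2 of 5 subunits. Among inhibitors 7 of 9 fell, and among targets 11 of 17. Over all genes tested 7.54% fell, which is below the share in each of these roles. The shares of the roles were not tested against each other or against that over all genes. The transactivating subunit Rela had 67.2, 73 and 67.1 CPM in 48 h cells and 76.7, 74.8 and 74.7 CPM in untreated cells, and did not pass (-0.13 ± 0.05, adjusted p = 0.13). The precursors Nfkb1 and Nfkb2 fell by 0.20 ± 0.04 and 0.26 ± 0.05. Ikbke, a kinase also used in interferon induction, fell by 0.54 ± 0.10.

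NF-kB can drive its own inhibitors, and whether its activity changed here was not tested. The genes listed as inhibitors do not all only inhibit, as with Nfkbiz below. Nfkbia, which encodes IκBα, had 98.9, 95.6 and 98.7 CPM in 48 h cells and 134, 131 and 130.2 CPM in untreated cells, a fall of 0.43 ± 0.07 (adjusted p = 0.00018). Nfkbiz, an atypical nuclear IκB that helps a subset of targets, had 68.3, 64.7 and 65.9 CPM in 48 h cells and 107, 103 and 105 CPM in untreated cells. The 3 libraries of each group lay close together, and Nfkbiz fell by 0.67 ± 0.05 (adjusted p = 1.2e-07). The nuclear IκB protein Bcl3 fell by 0.70 ± 0.07, and Zc3h12a, the nuclease Regnase-1 that degrades inflammatory mRNAs, by 0.74 ± 0.09. The ubiquitin-editing enzyme Tnfaip3 (A20) and its partner Tnip1 fell less, by 0.27 ± 0.05 and 0.37 ± 0.07.

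Nos2, the inducible nitric oxide synthase, moved most among the targets. It had 27.9, 25.4 and 26.7 CPM in 48 h cells and 78.6, 68 and 81 CPM in untreated cells (chr11:78920787-78960254, plus strand), a fall of 1.51 ± 0.08 (adjusted p = 3.8e-10). Mmp13, a collagenase, had 1.34, 1.06 and 1.81 CPM in 48 h cells and 3.69, 3.69 and 3.19 CPM in untreated cells. Cebpd, a transcription factor of the acute phase, fell by 0.71 ± 0.13. The early response gene Ier3 fell by 0.56 ± 0.06 and Ptges, which makes prostaglandin E2, by 0.38 ± 0.05. Irg1, the enzyme that makes itaconate in activated macrophages, was outside the list and had 12.1, 11.7 and 12 CPM in 48 h cells and 26.6, 28.4 and 27.3 CPM in untreated cells (-1.20 ± 0.08, adjusted p = 2.7e-09). Of the 23 NF-kB list members that fell, 19 were kept without each library in turn, but 7 with run as a term. Of those named, that fit kept Nos2, Nfkbiz, Mmp13, Ikbke, Ier3 and Ptges, and lost Nfkb1, Nfkb2, Nfkbia, Bcl3, Zc3h12a, Tnfaip3, Tnip1 and Cebpd (log2 fold changes of -0.49 to -0.12, adjusted p = 0.074 to 0.60).

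Most acute phase and complement genes fell. Of 14 tested, 11 fell and none rose (median -0.64). Saa3, a serum amyloid A made outside the liver, had 3.81, 4 and 5.31 CPM in 48 h cells and 13, 12 and 12.4 CPM in untreated cells, a fall of 1.51 ± 0.12. Lcn2, which withholds iron from bacteria by binding siderophores, had 3.02, 2.78 and 3.2 CPM in 48 h cells and 7.11, 6.55 and 6.62 CPM in untreated cells. C3, the hub of complement, had 73.8, 61.5 and 67.5 CPM in 48 h cells and 158, 135 and 147 CPM in untreated cells (-1.12 ± 0.07, adjusted p = 2.1e-09). None of these genes had a library that crossed between the groups, as for 43.1% of all genes tested. The complement proteases C1s and C1ra fell by 0.73 ± 0.07 and 0.55 ± 0.07, and the copper carrier Cp (ceruloplasmin) by 0.50 ± 0.06. Of the 11 falls, 8 were kept without each library in turn and 5 with run as a term. Cp and C1ra were lost by that fit (-0.34 each, adjusted p = 0.051 and 0.12). Reads of Saa3 can be shared with its near copies Saa1 and Saa2, which had 6 and 5 counts in all 6 libraries together.

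Of 16 tested cytokines and growth factors, 7 fell and none rose (median -0.34). Csf3, the granulocyte colony-stimulating factor, had 0.587, 0.698 and 0.691 CPM in 48 h cells and 2.12, 2.62 and 2.25 CPM in untreated cells, a fall of 1.82 ± 0.18. Csf2, the granulocyte and macrophage factor, fell by 1.23 ± 0.18. The IL6 family member Lif had 109.8, 106 and 100 CPM in 48 h cells and 169.6, 167 and 166 CPM in untreated cells (-0.67 ± 0.05). Csf1, the macrophage factor, fell by 0.35 ± 0.05, and the alarmin Tslp by 0.72 ± 0.13. Of the 7 falls, 5 were kept without each library in turn. Run as a term kept Csf3 and Lif and lost Csf1, Csf2 and Tslp (-0.16, -1.16 and -0.56, adjusted p = 0.46, 0.070 and 0.11).

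The κB-like letters stood in the promoters of 14 of the 34 genes matched to RefSeq (41.2%) among the 48 genes of the chemokine, NF-kB and acute phase lists that fell. The share over tested genes, 26.2%, is given above. The interferon-response-like letters stood in 3 of the 34 (8.82%). C3 held 3 κB-like matches, Cxcl1 3 and Saa3 and Lcn2 none.

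**Figure D3:**
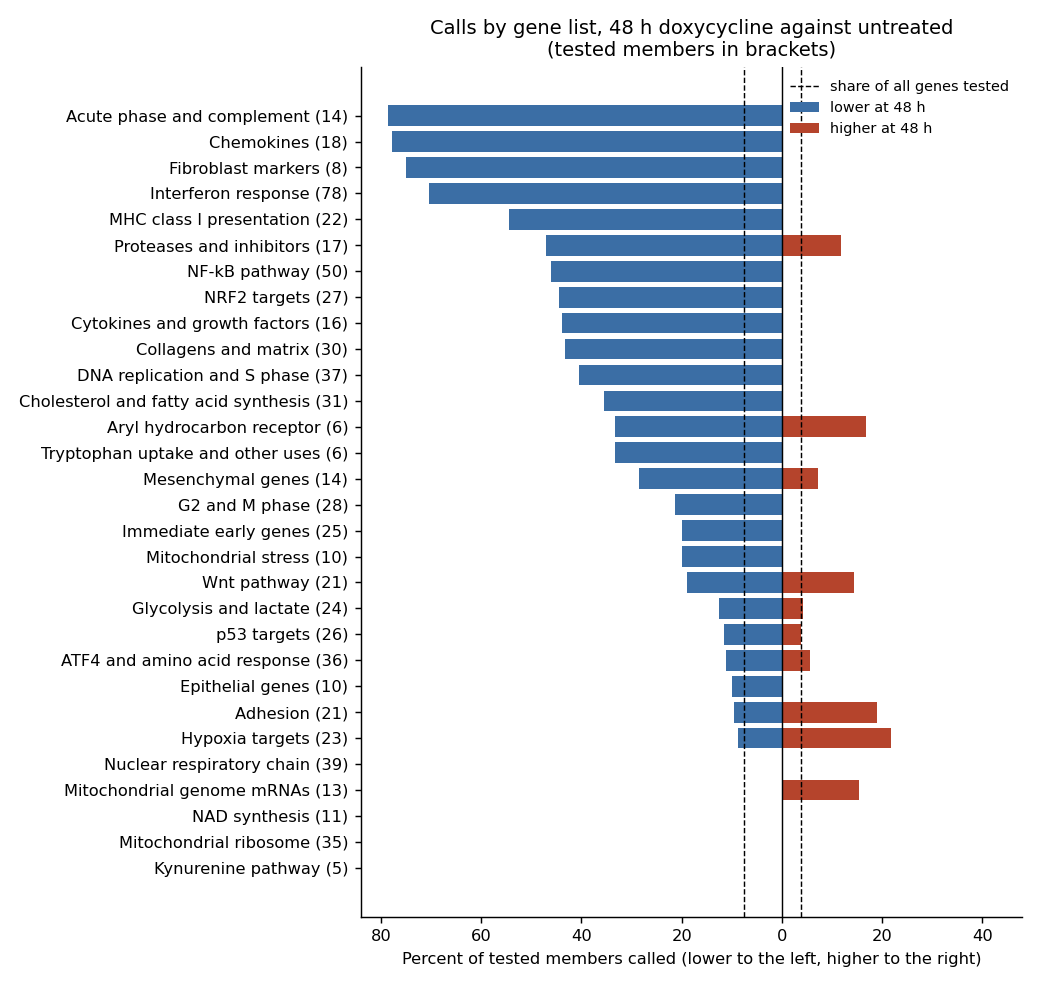
Percent of the tested members of each gene list that fell (blue, to the left) or rose (red, to the right), with the number of tested members in brackets. Dashed lines mark the shares over all genes tested, 7.54% lower and 3.81% higher. Acute phase and complement genes, chemokines, fibroblast markers and the interferon response reach the furthest to the left. The respiratory chain, mitochondrial ribosome, NAD synthesis and kynurenine lists have no call.

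The interferon response, the list with the most tested genes, also held the most falls. Of 78 tested genes, 55 fell and none rose (median -0.46). That is 70.5%, beside 7.54% over all genes tested. By share it lay below acute phase and complement genes (78.6%), chemokines (77.8%) and fibroblast markers (75.0%). None of 7 receptors and JAK-family kinases changed by edgeR or DESeq2 (1 lower at an unadjusted p under 0.05), with log2 fold changes of -0.15 to 0.05, and the only ligand with enough counts to test did not change. Of 9 transcription factors, 6 fell. The transcription factors Stat2 and Irf9, which act together, fell by 0.60 ± 0.06 and 0.47 ± 0.06. Irf7, the amplifier of type I interferon, had 38.1, 35.9 and 40.6 CPM in 48 h cells and 77.9, 77.4 and 75.3 CPM in untreated cells. It fell by 1.01 ± 0.07 (adjusted p = 2.8e-08), though it overlaps Phrf1, so reads of the pair may be mixed.

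The antiviral effectors fell almost throughout, with 32 of 38 called (median -0.52). Isg15, a ubiquitin-like protein, had 77.5, 78.9 and 82.2 CPM in 48 h cells and 139.9, 143 and 140.0 CPM in untreated cells. The spread within each group was small beside the gap, and Isg15 fell by 0.83 ± 0.06 (adjusted p = 4.5e-08). Usp18, the protease that removes Isg15 and damps the receptor, fell by 0.80 ± 0.07. Ifit3, which binds foreign RNA with its partners, had 80.1, 67.8 and 82.9 CPM in 48 h cells and 221, 228 and 187 CPM in untreated cells (-1.46 ± 0.12). Its near copy Ifit3b, listed as I830012O16Rik, had 9.34, 7.91 and 9.45 CPM in 48 h cells and 23.1, 24.2 and 18.5 CPM in untreated cells. These 2 genes can share reads.

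Further effectors showed the same direction. Ifi27l2a, the largest fall of this group, had 1.44, 1.48 and 1.59 CPM in 48 h cells and 4.94, 5.41 and 4.08 CPM in untreated cells (-1.67 ± 0.15). Cmpk2, a mitochondrial nucleotide kinase, fell by 0.89 ± 0.08. The oligoadenylate synthetase family members Oasl2 and Oas3 fell by 0.78 ± 0.07 and 0.70 ± 0.07, Xaf1 by 0.61 ± 0.06 and Bst2, which tethers budding virus, by 0.65 ± 0.08. Of 9 nucleic acid sensors, 4 fell. Zbp1, which senses left-handed nucleic acid, had 18.3, 20 and 20.6 CPM in 48 h cells and 39, 42.1 and 38.3 CPM in untreated cells. Dhx58, a regulator of the RIG-I family, fell by 0.75 ± 0.07.

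All 12 interferon-induced GTPases fell, by 0.26 to 1.11 on the log2 scale. These proteins attack the membranes around intracellular pathogens. Gbp2 had 39.1, 36.3 and 42.5 CPM in 48 h cells and 77.6, 81.4 and 71.1 CPM in untreated cells (-0.96 ± 0.08). Gbp3 had 47.3, 42.2 and 46.5 CPM in 48 h cells and 88.9, 92.2 and 86.8 CPM in untreated cells (-0.98 ± 0.08). No library of either gene crossed between the groups, as for 43.1% of all genes tested. Iigp1 fell by 0.98 ± 0.11, Tgtp2 by 0.89 ± 0.09 and Irgm2 by 0.74 ± 0.06. Irgm2 overlaps Igtp, and Tgtp2 can share reads with Tgtp1, which fell by 1.11 ± 0.16.

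Of the 55 falls of the interferon list, 51 were kept without each library in turn and 29 with run as a term. Of the genes named in the 4 paragraphs on this response, Irf9, Oasl2 and Tgtp1 were lost by that fit (-0.25, -0.49 and -0.60, adjusted p = 0.26, 0.080 and 0.26). The interferon-response-like letters stood in the promoters of 18 of 34 matched genes (52.9%) among the 44 antiviral effectors and GTPases that fell, and in 3.24% over tested genes. The κB-like letters stood in 7 of the same 34 (20.6%). Irf7 and Cmpk2 held neither motif in this window.

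Genes of antigen presentation by MHC class I fell in part. Of 22 tested genes, 12 fell and none rose (median -0.24). All 5 genes of the immunoproteasome and its activator, which cut peptides for presentation, fell. Psmb10 had 31.9, 30.8 and 31.6 CPM in 48 h cells and 54.4, 58.8 and 55.1 CPM in untreated cells (-0.84 ± 0.07), and Psmb9 fell by 0.53 ± 0.08. The peptide transporter Tap1 and the loading protein Tapbp fell by 0.41 ± 0.07 and 0.42 ± 0.06. The nonclassical heavy chain H2-T23 fell by 0.70 ± 0.07. The classical heavy chain H2-K1 had 695, 665 and 679 CPM in 48 h cells and 769, 776 and 759 CPM in untreated cells, which did not pass (-0.18 ± 0.09, adjusted p = 0.23). Of the 12 falls, 9 were kept without each library in turn, but only Psmb10 with run as a term (-0.70, adjusted p = 0.00047). Psmb10 overlaps another tested gene, and H2 genes can share reads.

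Matrix genes fell as well. Of 30 tested collagen and matrix genes, 13 fell and none rose (median -0.27). Col3a1, a fibrillar collagen, had 648, 667 and 664 CPM in 48 h cells and 1088, 1064 and 1027 CPM in untreated cells, a fall of 0.68 ± 0.06. The collagen VI chain Col6a2 had 159, 157 and 159 CPM in 48 h cells and 272, 256 and 249.9 CPM in untreated cells. The small proteoglycans Aspn and Dcn fell by 1.71 ± 0.17 and 0.44 ± 0.07. Islr and Angptl7, secreted proteins outside the list, fell by 1.27 ± 0.10 and 1.43 ± 0.07. Angptl7 had 34.8, 31.8 and 33.2 CPM in 48 h cells and 92, 93.7 and 83 CPM in untreated cells, but lies within Mtor on the genome, so its reads may be mixed. Of the 13 falls, 12 were kept without each library in turn and 6 with run as a term. Every matrix gene named here passed in both.

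Among proteases and their inhibitors the calls went both ways. Of 12 metalloproteinases tested, 7 fell, while the inhibitors Timp1 and Timp2 rose. Timp1 had 71.5, 76.8 and 71.7 CPM in 48 h cells and 54.9, 57.1 and 54.2 CPM in untreated cells (0.41 ± 0.06). It overlaps Syn1. Mmp3 and Mmp10 fell by 1.23 ± 0.20 and 1.06 ± 0.15. Of 10 protease and inhibitor calls, 8 were kept without each library in turn and 6 with run as a term. Timp2 was lost by that fit (0.23, adjusted p = 0.11). Fibroblast markers, many of them the same collagens, fell in 6 of 8 tested, with a summed level of 2728 to 2762 CPM in 48 h cells and 3527 to 3721 CPM in untreated cells. Thy1 and Pdpn were at 0 in all 6 libraries. Haematopoietic markers summed to 10.8 to 11.7 CPM in 48 h cells and 15.8 to 17.9 CPM in untreated cells, of which Cd68 fell by 0.60 ± 0.10, a call lost with run as a term (-0.49, adjusted p = 0.092). Of 10 haematopoietic markers 8 stayed under 1 CPM in all 6 libraries and Emr1 was at 0. Endothelial markers summed to 5.41 to 5.84 CPM in 48 h cells and 5.69 to 6.34 CPM in untreated cells. The part of other cells in the results was not tested.

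Genes of DNA replication, of the NRF2 list and of lipid synthesis fell in part and by little. Over all genes tested 7.54% fell. Of 37 DNA replication genes, 15 fell and none rose (median -0.16). Rrm2, the regulated subunit of ribonucleotide reductase, had 175, 188 and 183 CPM in 48 h cells and 220.2, 233 and 229 CPM in untreated cells (-0.32 ± 0.05). The helicase subunits Mcm5 and Mcm7 and the loading factor Cdc6 fell by 0.24 ± 0.05, 0.27 ± 0.04 and 0.24 ± 0.05. Among 28 mitotic and G2 genes, 6 fell (21.4%), and none of these calls was kept without each library in turn. No rise was called there by edgeR, but 5 members were higher at an unadjusted p under 0.05 and DESeq2 called 1 rise. Of 27 genes of the NRF2 list, 12 fell and none rose (median -0.19). Its targets defend against oxidants, and its 2 regulators were not called. Hmox1, the haem-degrading enzyme, had 79.6, 85.7 and 80.2 CPM in 48 h cells and 109, 111 and 107 CPM in untreated cells.

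Of 31 genes of cholesterol and fatty acid synthesis, 11 fell and none rose (median -0.11). The desaturase Fads2 had 30.8, 33.8 and 32.8 CPM in 48 h cells and 47, 47.4 and 47.4 CPM in untreated cells (-0.54 ± 0.05). The mevalonate pathway enzyme Fdps fell by 0.40 ± 0.07. Run as a term kept 5 of the 15 replication calls, 4 of the 12 NRF2 calls and 5 of the 11 lipid calls. Among those named it lost the calls but not the sizes of Mcm5 and Cdc6 (-0.25 and -0.23, adjusted p = 0.078 and 0.070). Without each library in turn, 8, 7 and 5 of these calls were kept. No rise was called by edgeR in the chemokine, NF-kB, acute phase, cytokine, interferon, MHC class I, matrix, replication, NRF2 and lipid lists. In each of them at most 2 members were higher at an unadjusted p under 0.05, and DESeq2 called 1 rise in the NF-kB list, 1 in the matrix list and none in the other lists.

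Other lists held calls in both directions, to be read against the 3.81% that rose and 7.54% that fell over all genes tested. Of 21 Wnt pathway genes, 3 rose and 4 fell (14.3% and 19.0%). Apc itself had 144, 131 and 142 CPM in 48 h cells and 116, 95.9 and 123 CPM in untreated cells, which did not pass (0.32 ± 0.12, adjusted p = 0.10). It passed by DESeq2 (0.32, adjusted p = 0.042) and in edgeR with the replicate block (0.33, adjusted p = 0.040). Sox9, a Wnt-responsive transcription factor of intestinal progenitors, had 90.4, 89 and 91.2 CPM in 48 h cells and 74.3, 69.8 and 73.1 CPM in untreated cells (0.32 ± 0.05). Ccnd1, which encodes cyclin D1, fell by 0.22 ± 0.04, with the same size but no call with run as a term (-0.21, adjusted p = 0.065). Of 26 p53 targets 1 rose and 3 fell (3.85% and 11.5%), among them the death receptor Fas (-0.50 ± 0.10), which was lost with run as a term (-0.24, adjusted p = 0.50). Of 23 genes of the hypoxia list (3 factors and 20 targets) 5 rose and 2 fell (21.7% and 8.7%). The factor Arnt, named above, was 1 of the rises. The scarce hormone precursor Adm had 0.0564, 0.0625 and 0.117 CPM in 48 h cells and 0.404, 0.31 and 0.372 CPM in untreated cells (-2.18 ± 0.46). Of 36 ATF4 and amino acid response genes 2 rose and 4 fell (5.56% and 11.1%), and of 24 glycolysis genes 1 rose and 3 fell (4.17% and 12.5%). The shares of p53, ATF4 and glycolysis genes lie near those over all genes. Run as a term kept none of the 5 hypoxia rises and none of the 4 Wnt falls, and 1 of the 3 Wnt rises. Without each library in turn, 3 of the hypoxia rises, 2 of the Wnt falls and 2 of the Wnt rises were kept. The 2 ATF4 rises and the p53 rise were kept in neither.

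No gene of the nuclear-encoded respiratory chain (39 tested), the mitochondrial ribosome (35) or NAD synthesis (11) changed by edgeR. At an unadjusted p under 0.05, 6 respiratory chain genes and 7 mitochondrial ribosome genes were lower, and 1 NAD synthesis gene was higher and 2 lower. DESeq2 called 4 mitochondrial ribosome genes lower and none in the other lists. Of 13 mRNAs of the mitochondrial genome 2 rose. Of these, mt-Cytb, a subunit of complex III, had 470.0, 401 and 437 CPM in 48 h cells and 222, 265 and 296 CPM in untreated cells (0.74 ± 0.21, adjusted p = 0.039). That call was lost without any 1 of the 6 libraries (adjusted p = 0.052 to 0.16) and with run as a term. All mitochondrial genes together took 0.294 to 0.336% of gene counts in 48 h cells and 0.249 to 0.302% in untreated cells.

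Rises were fewer. Gpr56, an adhesion receptor that binds matrix proteins, had 9.88, 8.71 and 8.71 CPM in 48 h cells and 2.72, 2.9 and 2.52 CPM in untreated cells (chr8:94977109-95014208, plus strand). Gpr56 rose by 1.75 ± 0.09 (adjusted p = 3.8e-10). Cdsn, a desmosomal glycoprotein of keratinising epithelium, had 5.78, 5.86 and 5.9 CPM in 48 h cells and 1.85, 2.24 and 2.03 CPM in untreated cells (1.52 ± 0.12). Car6, a secreted carbonic anhydrase, had 41.5, 43.4 and 41.9 CPM in 48 h cells and 23.3, 25 and 22.3 CPM in untreated cells (0.85 ± 0.07). L1cam, a neural adhesion molecule, rose by 0.62 ± 0.11, and the integrin subunit Itgb7 by 0.36 ± 0.05. Itgb3 and Itgb5 fell by 0.52 ± 0.06 and 0.37 ± 0.05. The adhesion list as a whole had 4 rises and 2 falls of 21 tested (19.0% and 9.52%), beside 3.81% and 7.54% over all genes tested. Its share of falls lies near that over all genes.

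Other rises among the largest were Avil, an actin-severing protein (0.69 ± 0.09), Ccar1, a cell cycle and apoptosis regulator (0.63 ± 0.07), Fam171b (0.68 ± 0.11), the myo-inositol transporter Slc5a3 (0.72 ± 0.14) and Pgap1, which remodels GPI anchors (0.65 ± 0.14). Avil overlaps Tsfm, Ccar1 a small nucleolar RNA, L1cam Arhgap4 and Slc5a3 Mrps6. Run as a term kept Gpr56, Cdsn, Car6, Avil, Ccar1, Itgb7, Itgb3, Itgb5 and Timp1. It lost the calls of L1cam (0.56), Fam171b (0.49), Slc5a3 (0.58) and Pgap1 (0.44), with adjusted p = 0.051 to 0.31.

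Among called genes with an assigned symbol, separate groups and 5 CPM or more in the higher group, Malat1 had the largest fitted rise. Malat1 is a nuclear noncoding RNA. It had 481, 335 and 330.2 CPM in 48 h cells and 84.9, 89 and 164 CPM in untreated cells, with untreated replicate 3 nearer to the 48 h cells than the other untreated libraries (1.76 ± 0.46, adjusted p = 0.028). The call was lost without any 48 h replicate (1.56 to 1.86, adjusted p = 0.050 to 0.098), without untreated replicate 1 or 2 (1.59 and 1.61, adjusted p = 0.11 each) and with run as a term (0.95, adjusted p = 0.60). Neat1, also a nuclear noncoding RNA, had 44.5, 41.1 and 37.7 CPM in 48 h cells and 23.2, 26.4 and 33.2 CPM in untreated cells and did not pass (0.57 ± 0.25, adjusted p = 0.16). Ogt, the O-GlcNAc transferase, and Nf1, the RAS inhibitor neurofibromin, rose by 0.64 ± 0.17 and 0.63 ± 0.18. Ogt lost its call without 48 h replicate 1 or 2 or untreated replicate 1 or 2 (0.53 to 0.62), and Nf1 without any library but untreated replicate 3 (0.50 to 0.67). Both also lost their calls with run as a term (0.74 and 0.64, adjusted p = 0.14 and 0.23) and without the filter on low counts (adjusted p = 0.066 and 0.082).

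Long genes were more often among the rises. The median exonic length was 5241 bases for genes that rose, 2958 for those that fell and 3181 for the rest. With tested genes in 5 bins by exonic length, 1.57% rose and 5.3% fell in the shortest bin, and in the longest bin 7.93% rose and 3.8% fell. The median log2 fold change was -0.03 in the shortest and 0.09 in the longest bin. The part of length and of the larger share of reads outside genes in the rises was not tested.

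**Figure D4:**
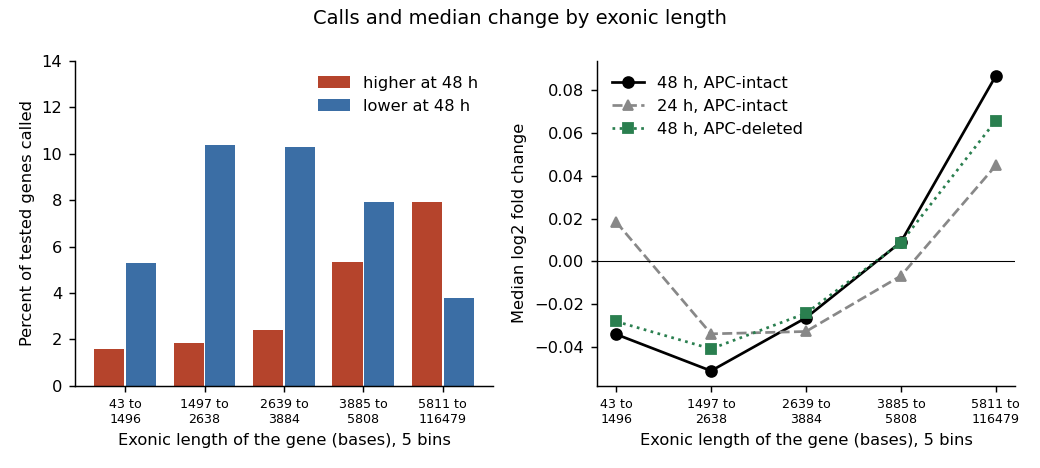
Left, percent of tested genes that rose (red) or fell (blue) at 48 h by exonic length, in 5 bins of near equal size. Right, median log2 fold change by the same bins, with circles for APC-intact cells at 48 h, triangles for APC-intact cells at 24 h and squares for APC-deleted cells at 48 h. Genes in the longest bin had a median of 0.09 at 48 h in APC-intact cells.

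Since 48 h and untreated libraries differ in run, the 24 h libraries and the APC-deleted line are set beside them. The 24 h and untreated APC-intact libraries share run 1, and the 24 h and 48 h APC-deleted libraries share run 2. Both treated times of a line use the same untreated libraries, so their values are given side by side without a test of likeness. At 24 h in APC-intact cells, 4.25% of tested genes fell. Of the 50 NF-kB list genes, 3 fell at 24 h and 23 at 48 h, with medians of -0.02 and -0.22. Of 18 chemokines, 7 fell at 24 h and 14 at 48 h (medians -0.28 and -0.99), and of 14 acute phase and complement genes, 4 and 11 (medians -0.24 and -0.64). The interferon response had 44 falls at 24 h and 55 at 48 h of 78, with medians of -0.31 and -0.46.

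The difference between the times was tested directly. Between 48 h and 24 h in APC-intact cells, which differ in run, 0.646% of tested genes were lower at 48 h. Lower were 12 of 50 NF-kB genes, 8 of 18 chemokines, 6 of 14 acute phase and complement genes and 9 of 78 interferon genes. Between 48 h and 24 h in APC-deleted cells, within run 2, 0.446% of tested genes were lower at 48 h. Lower were 10 of 50 NF-kB genes, 9 of 18 chemokines, 3 of 14 acute phase and complement genes and none of 78 interferon genes (12 at an unadjusted p under 0.05). The median difference of the interferon genes was -0.03 there, and -0.18 in APC-intact cells.

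Single genes show this division in part. In APC-intact cells Cxcl1 had a log2 fold change of -0.22 at 24 h (adjusted p = 0.12) and -1.44 at 48 h, and was lower at 48 h than at 24 h by 1.03 within run 2 in APC-deleted cells (adjusted p = 5.4e-07). Nos2 had -0.25 at 24 h (adjusted p = 0.064) and -1.51 at 48 h in the intact line, with -1.11 between the times in APC-deleted cells. Lcn2 had 0.23 at 24 h (adjusted p = 0.26) and -1.17 at 48 h in the intact line, with -1.40 between the times in APC-deleted cells. Against untreated APC-deleted cells, Lcn2 was higher at 24 h (0.61, adjusted p = 0.0020) and lower at 48 h (-0.79), and Cxcl1 likewise (0.28, adjusted p = 0.042, and -0.75). Ifit3 had -1.17 at 24 h and -1.46 at 48 h in the intact line, with 0.03 between the times in APC-deleted cells (adjusted p = 0.98). Isg15 had -0.54 at 24 h and -0.83 at 48 h in the intact line, with -0.14 between the times in APC-deleted cells (adjusted p = 0.48). Irf7, Zbp1 and Gbp3, among the 9 of 78 interferon genes, were lower at 48 h than at 24 h in the intact line, across runs. The differences were -0.52, -0.54 and -0.47 (adjusted p = 0.00047, 0.00068 and 0.0026). Between the times in APC-deleted cells these genes had -0.21, -0.27 and -0.23 (adjusted p = 0.32, 0.17 and 0.30). Gpr56 had 1.52 at 24 h, within run 1, and 1.75 at 48 h in the intact line, with 0.27 between the times in APC-deleted cells (adjusted p = 0.23).

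**Figure D5:**
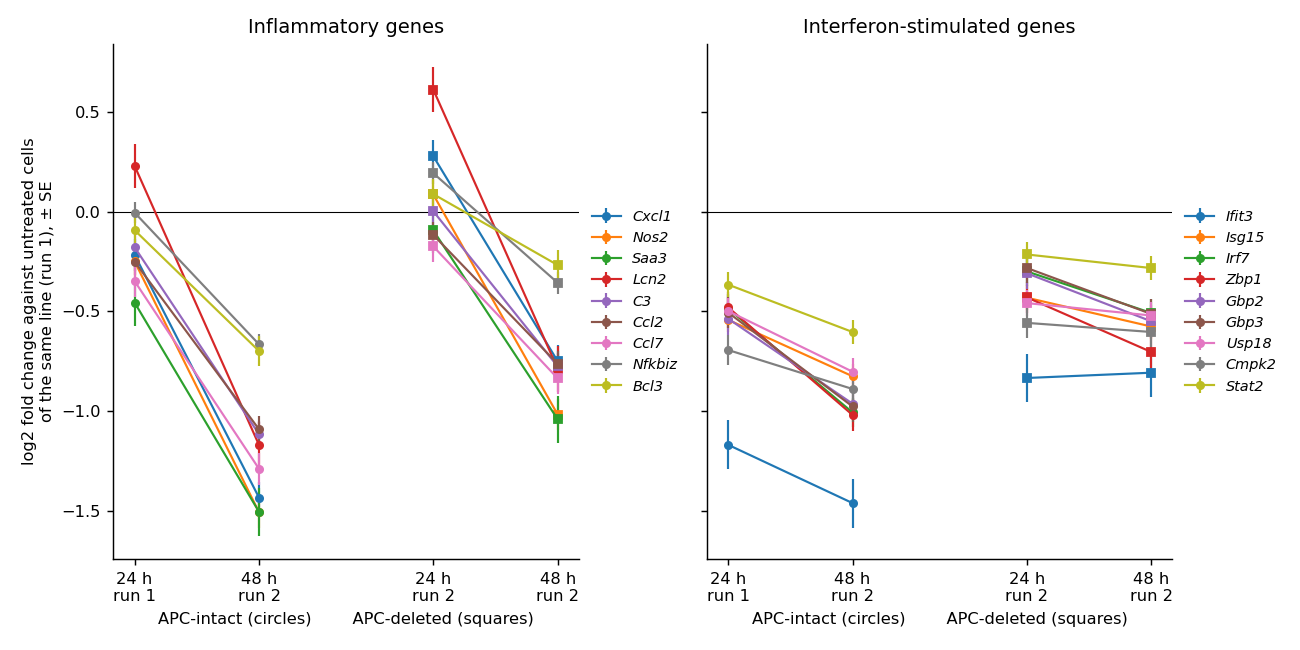
Log2 fold change ± SE against untreated cells of the same line (y axis) at 24 h and 48 h, for APC-intact cells (circles, left) and APC-deleted cells (squares, right), with the run of the treated libraries under each time. All untreated libraries are from run 1. The inflammatory genes lie nearer to 0 at 24 h than at 48 h, and below 0 at 48 h, in both lines, for Cxcl1 at -0.22 and -1.44 in APC-intact cells. The interferon-stimulated genes are already low at 24 h, for Ifit3 at -1.17.

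The response at 48 h was set against that of APC-deleted cells in 1 interaction contrast. Both lines have the same layout of runs in it, so a run effect of equal log2 size in both lines cancels. A run effect that differs between the lines would remain. Of 15006 genes, 4 differed (0.0267%), and 1051 had an unadjusted p under 0.05. No gene differed in 8 of 12 fits that each left out 1 library, and at most 3 did in the others. With only the groups compared the count was 0, and DESeq2 called 57. Cxcl1 fell more in APC-intact cells than in APC-deleted cells, with log2 fold changes of -1.44 and -0.75 (difference -0.68 ± 0.11, adjusted p = 0.036). At 48 h in APC-deleted cells, 6.49% of tested genes fell. There, 17 of 50 NF-kB genes, 10 of 18 chemokines, 9 of 14 acute phase and complement genes and 38 of 78 interferon genes fell. An effect that passes in only 1 line is not shown to differ between the lines.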

How the data were processed

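RNA sequencing libraries were grouped by their titles. The deposited counts are whole numbers per gene and library, made by the authors with STAR, HTSeq and mm10, per the submitters' processing notes. An RPKM column deposited beside the counts was not used. Tool versions, annotation release and strand setting are not given in the sources used here. Rows without a gene were left out: they held 25.0 to 25.5% of the 48 h totals and 23.9 to 24.7% of the untreated totals. Of 39179 genes, 25225 had a count and 15006 passed filterByExpr by group.

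The test was edgeR's quasi-likelihood test (edgeR 4.0.16, R 4.3.3, TMM, robust glmQLFit) with a mean for each of the 6 groups and spread shared by all 18 libraries, Benjamini-Hochberg adjustment over all genes tested, a threshold of 0.05 and 95% intervals. Pairs of replicates differed by more than sampling noise, and each library was counted once. Alternatives tried were DESeq2 1.42.0, relative log expression factors, testing without the filter, thinning to the shallowest library, only the groups compared, a replicate block, run as a term and leaving out each library in turn. Gene lists, members and the naming rule were chosen with earlier results of these data known. The rule took the 15 largest rises and 15 largest falls among called genes with a symbol, at least 5 CPM in the higher group and no overlap, up to 4 members of smallest adjusted p per list and role, a few fixed genes, and up to 5 each way for the difference from the APC-deleted line. The genes in the text are part of those the rule admits, and some of the others are not reported here. Members named beyond it (Bst2, Cebpd, H2-K1, I830012O16Rik, Iigp1, Mcm5, Oas3, Oasl2, Tgtp1, Tnfaip3, Tnip1 and Xaf1) were chosen after their values were seen. Lists are described by counts and medians, without a test of the list.

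Intervals hold for these libraries and their counting error. On simulated data for this comparison (14835 genes), edgeR found 91 of the 100 genes set to 1.5-fold and 92 of the 100 set to 2-fold and made 5 false calls. The genes set to change were drawn from those above a floor of counts, and no difference of run was simulated. The simulation therefore covers neither scarce genes nor the overlap of run and treatment. Of 112 genes named with values, 26 overlap another tested gene and are uncertain, as it is not known whether counting used strand. Those not marked in the text are Aspn, Bcl3, Ccnd1, Cp, Cxcl10, Cxcl16, Dhx58, Irf9, Mcm7, Nf1, Nfkb2, Tap1 with Psmb9, Tapbp, Tgtp1, Tgtp2 and Timp2. Promoter sequences are from RefSeq on GRCm38.p6. Gene positions are on mm10 as in the files.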

Additional observations from a re-analysis of the deposited data

Results flagged for a closer look

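The 48 h response differed between the lines for 4 genes by the interaction contrast of edgeR, in each case with adjusted p = 0.036 or 0.045. The difference is that of the log2 fold changes, APC-intact minus APC-deleted.

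Timp1 rose in APC-intact cells (0.41 ± 0.06), and had a log2 fold change of -0.09 in APC-deleted cells, where it averaged 37.3 ± 2.88 CPM at 48 h and 39.7 ± 1.45 CPM untreated (SD, n = 3 each). The difference was 0.49. Cxcl1 fell in both lines, with a difference of -0.68. In APC-deleted cells it averaged 186 ± 11.5 CPM at 48 h and 313 ± 23 CPM untreated.

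Mx2, an interferon-induced antiviral GTPase of the dynamin family, had 5.56, 5.06 and 5.07 CPM in 48 h cells and 7.75, 8.75 and 7.94 CPM in untreated cells of the APC-intact line. In APC-deleted cells it averaged 6.23 ± 0.372 CPM at 48 h and 5.44 ± 0.586 CPM untreated, and the difference was -0.83. Bcl2l15, a BCL2 family member, had 5.54, 4.73 and 4.8 CPM in 48 h cells and 6.79, 7.33 and 6.83 CPM in untreated cells of the APC-intact line. In APC-deleted cells it averaged 16.4 ± 0.201 CPM at 48 h and 15.2 ± 0.408 CPM untreated, and the difference was -0.59.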

How the results depend on the processing

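DESeq-style factors, no filter and thinned counts left the numbers of genes that changed, rose or fell at 48 h within 1.5 times. DESeq2 called more rises (899, against 572). With only the groups compared, 4367 genes changed, 2041 higher and 2326 lower. With run as a term, 347 changed, 61 higher and 286 lower, and 1695 of the 1703 calls had the same sign. In that fit, whose values are shared by both lines, Tdo2 stood at -0.25 and H2-K1 at 0.0308. Leaving out each library gave 822 to 1409 changed, 166 to 439 higher and 610 to 970 lower genes. It gave Tdo2 log2 fold changes of -0.0359 (without untreated replicate 3) to 0.35. Calls kept without every library in turn were 120 of 572 rises and 503 of 1131 falls. For the difference from the APC-deleted line, DESeq2 called 57 genes, no filter 14, only the groups compared 0 (1093 at an unadjusted p under 0.05) and leaving out each library 0 to 3.

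The replicate numbers were not taken to pair the libraries. In the groups compared, deviations of libraries with the same number correlated at -0.05, 0.05 and -0.04, and of those with different numbers at -0.04 to 0.08. Whether the numbers mark shared cultures is not settled here. With the replicate block 2173 genes changed, 841 higher and 1332 lower, 3 differed from the APC-deleted line, and Tdo2 was 0.15. Of 106 named genes that changed, 68 were kept under all settings, 102 without each library and 68 with run as a term. The cause of these shifts was not tested. Depth limits the precision of scarce genes such as Tdo2.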
